A study of Bos taurus with 10 samples.

Results

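Respiratory complex I, the NADH:ubiquinone oxidoreductase of mitochondria, was followed through the genes whose symbol starts with NDUF, which are nuclear genes for its subunits and for factors that help to build it. The members are the genes with a probe set that carries exactly 1 gene symbol in the platform annotation, and the brightest probe set stands for each gene. They number 42 of 9155 named genes and come from 57 probe sets. All 42 had a mean above the level of 6.98 that the filter on dim probe sets asks for, and 6271 genes in all passed it. NDUFAF1, NDUFAF2, NDUFAF4 and NDUFAF7 were not analysed here.

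The samples are skeletal muscle, longissimus dorsi, from Hanwoo (Korean native cattle), and poly(A) RNA of each was measured on 1 GeneChip Bovine Genome Array. The series gives 1 group of 10 samples, numbered here as animals 1 to 10, and an age of about 2 years in the label of animal 1. The study set expression against beef traits measured in these cattle, and no trait values were used here. That the samples are different cattle is known from their numbering and the design note alone, so p-values reflect the spread between samples, which may be technical. Levels are log2(signal + 16) after quantile normalization, which gives every array the same distribution, and folds of dim genes come out too small on it. Brightness was not made comparable between probe sets, so genes are not ranked by level.

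Complex I takes electrons from NADH and hands them to ubiquinone while it pumps protons across the inner mitochondrial membrane. It is built like an L. A matrix arm holds the flavin and the iron-sulfur clusters, and a membrane arm holds the proton pumps, whose core is encoded by mitochondrial DNA. Around the core subunits sit many accessory subunits that hold the complex together, and assembly factors act during its construction without staying in it. In skeletal muscle the complex is abundant in oxidative fibres.

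The labelled tissue was checked on its markers. The 8 muscle markers measured of 10 listed all passed the filter, with means from 15.22 for DES to 16.05 for TNNC1, and their list mean ran from 15.65 to 15.72 over the animals. Marker lists of other cells had list means of adipocyte genes between 7.67 and 9.35, connective tissue between 9.12 and 11.31, leukocyte between 6.77 and 8.59 and endothelium between 7.20 and 7.96. LEP (5.62), POSTN (4.89), KDR (5.70), HBB (5.70) and the brown fat marker UCP1 (5.93) were among the markers below the filter. Animal 5 stood apart from the other 9 in its added control RNAs. The difference between the 3' and 5' probe sets of 8 poly(A) control pairs was 2.80 on the log2 scale in animal 5 and 1.09 to 1.38 in the others. Results on complex I are therefore given with and without this animal.

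Many complex I genes were low in animal 5, and the members lay close together in the other 9 animals. Of the 42 members, 25 (59.5%) had their lowest level of the 10 animals in animal 5, against a background of 27.6% of all 6271 genes. Another 7 (16.7%) had their highest level there, which is below the background of 21.1%. In 15 members animal 5 lay over 1 on the log2 scale below the mean of the other 9, where the background is 11.1%, and in 0 members it lay over 1 above, where the background is 5.52%. By Dixon's measure of the gap to the nearest animal, animal 5 was set apart as the lowest in 19 members (background 8.63%) and as the highest in 1 (background 3.28%), and an extreme animal of any number was set apart in 20 members (background 16.7%). The median member lay 0.73 below that mean, a log2 difference of -0.73, and over all genes the median difference was -0.06. The pattern was not particular to complex I. Of 39 genes of respiratory complexes II to V, 23 were lowest and 5 highest in animal 5. In 13 of these 39 animal 5 lay over 1 below the mean of the other 9, and in 20 it was set apart as the lowest. Their median difference was -0.52. The animal also had the lowest list means of adipocyte (7.67) and leukocyte (6.77) markers of the 10, and a connective tissue list mean of 9.33. Fits of the members on the adipocyte score and on the control RNA difference are given below, and leukocyte and connective tissue scores were not fitted. With 1 such animal, the part of these markers and that of the control RNA difference in its levels cannot be told apart. In bulk muscle, fewer cells of a type and less RNA per cell cannot be told apart.

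**Figure D1:**
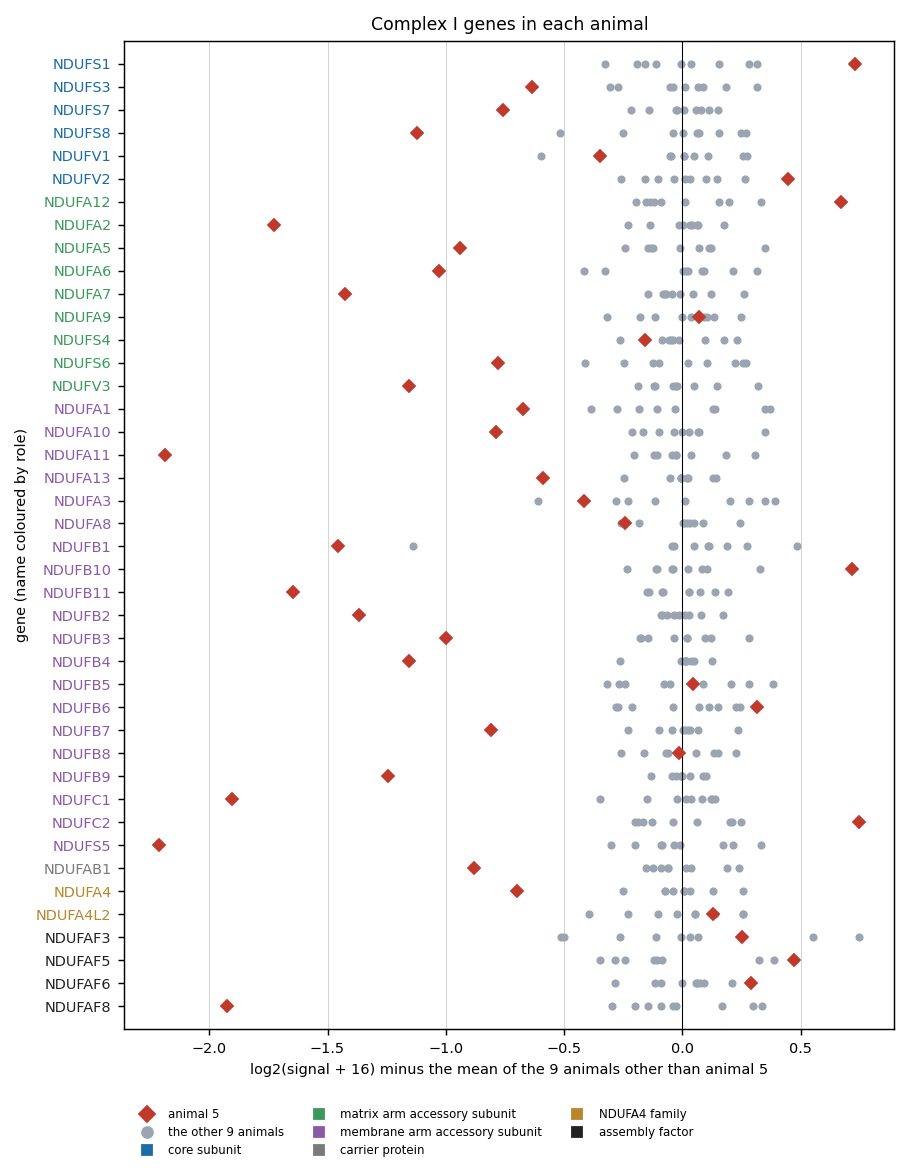
Each row is 1 complex I gene and each point 1 animal, placed by its log2(signal + 16) minus the mean of the 9 animals other than animal 5; the colour of the name gives the gene's role. The diamonds of animal 5 run from -2.21 for NDUFS5 to 0.75 for NDUFC2, and animal 9 stands apart with it in NDUFB1.

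The core subunits, which carry the flavin, the iron-sulfur clusters and the quinone site, showed both directions. NDUFS1, the large subunit with several iron-sulfur clusters, ran from 12.92 over a median of 13.26 to 13.97. Its highest value was in animal 5, 0.73 above the mean of the others. NDUFV2, an iron-sulfur subunit at the NADH end, ran from 14.07 over a median of 14.35 to 14.77, again with animal 5 at the top, 0.45 above. NDUFV1, which binds the flavin and NADH, had its lowest value in animal 10, at 11.65, with a median of 12.25 and a highest value of 12.52. Animal 5 lay inside the range of the others for this gene.

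The other core subunits were lowest in animal 5. NDUFS8, which carries iron-sulfur clusters on the way to the quinone site, stood at 11.19 there, with a median of 12.35 and a highest value of 12.58 in animal 1. Its next lowest value was 11.80 in animal 6. NDUFS7, which holds the last iron-sulfur cluster before ubiquinone, stood at 12.55 in animal 5 and at 13.09 to 13.45 in the others, with a median of 13.30. NDUFS3 ran from 13.00 in animal 5 over a median of 13.63 to 13.96. Thus 3 of 6 core subunits had their lowest value in animal 5, against a background of 27.6% of all genes. Their highest value was there in 2, against a background of 21.1%.

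Accessory subunits of the matrix arm had their lowest value in animal 5 in 6 of 9 cases, against a background of 27.6%. NDUFA2 stood at 12.25 in animal 5, with a median of 14.00 and a highest value of 14.16. The other 9 animals lay between 13.75 and 14.16, so that animal 5 was 1.73 below their mean, a 3.31-fold difference. NDUFA7 stood at 11.83 in animal 5 and at 13.11 to 13.51 in the others, with a median of 13.19. NDUFV3, at 12.00 in animal 5, had a median of 13.12 and a highest value of 13.47. Animal 5 was apart from the others in all 3 of these genes. NDUFA6 (lowest 11.93, median 12.98, highest 13.27) and NDUFA5 (lowest 11.97, median 12.85, highest 13.26) were also lowest in animal 5, and so was NDUFS6, which ran from 11.99 to 13.04.

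The other matrix arm accessory subunits did not follow them. NDUFA12, which sits near NDUFS6 and takes the place of an assembly factor late in construction, spanned 13.84 to 14.70 around a median of 13.99, and its top value was in animal 5, 0.67 above the mean of the others. NDUFS4, a subunit whose loss causes Leigh syndrome in people, ran from 13.73 over a median of 13.95 to 14.23. NDUFA9, at the joint between the arms, ran from 12.19 over a median of 12.56 to 12.76. For NDUFS4 and NDUFA9 animal 5 was inside the range of the other 9, but NDUFS4 was lowest in animal 5 with the deposited scaling and with arrays centred on their median.

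Accessory subunits of the membrane arm included NDUFS5 and NDUFA11, the members in which animal 5 lay farthest below the rest. Of the 20 genes of this role 13 had their lowest value in animal 5, against a background of 27.6%. NDUFS5 stood at 11.18 in animal 5, with a median of 13.33 and a highest value of 13.73 in animal 6. The difference from the mean of the other 9 was -2.21, a 4.63-fold lower level. NDUFA11 stood at 9.60 in animal 5 and at 11.59 to 12.10 in the others, with a median of 11.75, a 4.56-fold lower level. NDUFC1, a small subunit, was at 11.36 in animal 5, with a median of 13.29 and a highest value of 13.40. These 3 genes have 3 of the 5 largest SDs of the family.

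Several of the B subunits, accessory subunits of the membrane arm, were lowest in animal 5 too. NDUFB11 stood at 11.23 in animal 5, with a median of 12.85 and a highest value of 13.07. NDUFB2 stood at 12.08 in animal 5 and within 13.35 to 13.61 in the other 9, with a median of 13.42. NDUFB9, at 12.45 in animal 5, lay within 13.56 to 13.80 in the others, with a median of 13.69. Without animal 5 the SDs of these last genes were 0.08 and 0.07, the smallest of the family. NDUFB4 (lowest 12.78, median 13.95, highest 14.06), NDUFB3 (12.36, 13.35 and 13.64) and NDUFB7 (11.89, 12.71 and 12.94) were lowest in animal 5 as well. Of the A subunits of this arm, NDUFA10 ran from 11.51 in animal 5 over a median of 12.28 to 12.64, NDUFA13 from 13.12 to 13.85 and NDUFA1 from 14.08 to 15.12, both with their lowest value in animal 5.

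NDUFB1 was low in another animal too. It stood at 11.93 in animal 5 and at 12.25 in animal 9, with 13.35 to 13.87 in the other 8 and a median of 13.47. Its SD over the 9 animals without animal 5 was 0.46, the largest of the family. The second probe set of NDUFB1 had a mean of 5.06, below the filter, and was no check on this value.

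Membrane arm genes with their highest value in animal 5 were NDUFC2, NDUFB10 and NDUFB6. NDUFC2, which partners NDUFC1 in the complex, ran from 13.80 over a median of 14.01 to 14.74 in animal 5, 0.75 above the mean of the others. NDUFB10 ran from 13.81 over a median of 14.04 to 14.76, also with its top value in animal 5. NDUFB6 was highest there by a small margin, 13.47 against 13.40 in the next animal. NDUFB8 (lowest 14.52, median 14.76, highest 15.01), NDUFA8 (13.78, 14.05 and 14.28) and NDUFB5 (12.24 to 12.94) had animal 5 inside the range of the others, though NDUFA8 was lowest there under the other scalings. Animal 5 was also inside the range in NDUFA3, which ran from 12.11 in animal 2 to 13.12 and had an SD of 0.34 with and without animal 5. With the deposited scaling in place of quantile normalization, the direction of animal 5 against the mean of the other 9 was the same for all 42 members, and also with arrays centred on their median. The count of members highest in animal 5 was 4 with the deposited scaling, and 3 genes, NDUFS1, NDUFC2 and NDUFAF6, were highest there under all 3 scalings.

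NDUFAB1 is the mitochondrial acyl carrier protein, which also sits in complex I. It stood at 12.39 in animal 5 and at 13.12 to 13.51 in the others, with a median of 13.21. NDUFA4 was long counted with complex I and is now placed in cytochrome c oxidase, complex IV. It ran from 14.51 in animal 5 over a median of 15.20 to 15.47. Its SD was 0.26 after quantile normalization and 0.55 with the deposited scaling. The related NDUFA4L2, which is induced by low oxygen, was dim at 7.40 ± 0.21 (SD, n = 10), little above the filter, and ran from 6.99 to 7.65.

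Assembly factors differed among themselves. NDUFAF8, a partner of NDUFAF5, stood at 9.77 in animal 5, with a median of 11.63 and a highest value of 12.03, a 3.79-fold lower level than the mean of the others. NDUFAF5, an enzyme that modifies NDUFS7, ran from 9.81 over a median of 10.07 to 10.64, and animal 3 (10.64) lay just above animal 5. NDUFAF6 ran from 9.01 over a median of 9.35 to 9.58 in animal 5. NDUFAF3, which helps to build the quinone part of the matrix arm, ran from 11.11 to 12.37, and its SD was 0.41 over all animals and 0.43 without animal 5. Animal 5 was the highest of the 10 in NDUFAF6 and lay inside the range of the others in NDUFAF3.

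The spread between animals was described by the SD. The median SD of the 42 members was 0.32 over all 10 animals and 0.16 without animal 5, while over all 6271 genes it was 0.36 and 0.31. An SD over 0.5 was found in 7 members, against a background of 22.1%, and in 0 members without animal 5, against a background of 14.6%. NDUFS5 (0.73), NDUFA11 (0.71), NDUFAF8 (0.64), NDUFB1 (0.63) and NDUFC1 (0.62) had the largest SDs, and without animal 5 these were 0.20, 0.16, 0.22, 0.46 and 0.16. NDUFS4 and NDUFB8 (both 0.15), NDUFA8 (0.16), NDUFAF6 (0.16) and NDUFA9 (0.17) had the smallest. The SD was lower without animal 5 in 37 of 42 members and in 61.5% of all genes. With the deposited scaling the median member SD was 0.33, and 0.22 without animal 5. Other respiratory complexes had median SDs without animal 5 of 0.14 (complexes II and III, 13 genes), 0.16 (complex IV, 11 genes) and 0.13 (complex V, 15 genes). With the deposited scaling these were 0.20, 0.30 and 0.24, so that complexes IV and V lay above complex I. The difference between complex I and these was not tested. The median level was 13.18 over the members' probe sets and 9.24 over those of all genes, and the part of signal level in the SDs was not tested.

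**Figure D2:**
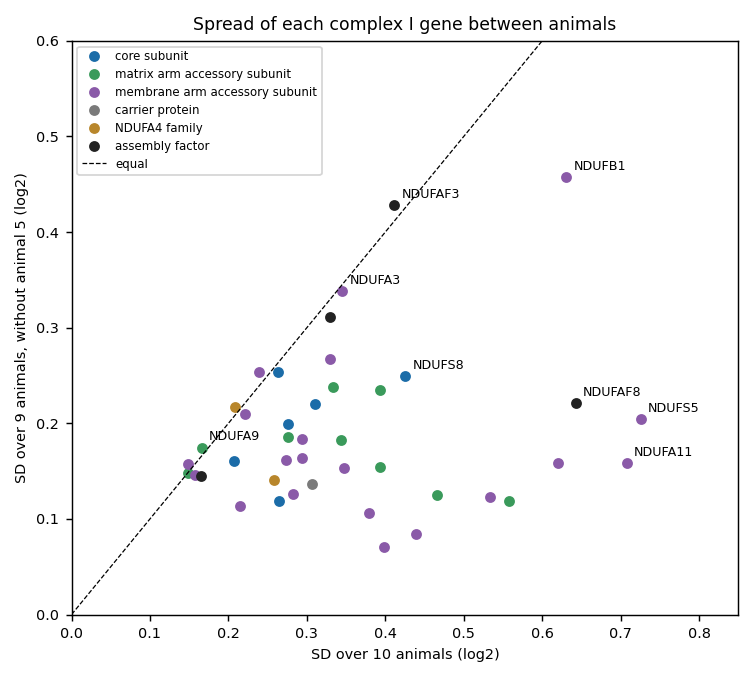
Each point is 1 complex I gene, with its SD over 10 animals on the x axis and its SD over the 9 animals without animal 5 on the y axis, both on the log2 scale; colours give roles and the dashed line marks equal values. NDUFS5, NDUFA11 and NDUFAF8 drop from 0.73, 0.71 and 0.64 to 0.20, 0.16 and 0.22, while NDUFB1 stays at 0.46 and NDUFAF3 at 0.43.

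Probe sets of the same complex I gene did not place animal 5 alike. Of 12 genes with several probe sets, 7 had a second one above the filter, and in 2 of these 7, NDUFS1 and NDUFA5, both showed the same direction in animal 5. For NDUFS1 the differences from the mean of the other 9 were 0.73 and 0.83. For NDUFB2 they were -1.37 in the brightest probe set and 0.45 in the second, at mean levels of 13.31 and 11.30. NDUFAF3 had probe sets of nearly equal mean, 11.65 and 11.64, with differences of 0.25 and -1.14. NDUFAF5 gave 0.47 and -0.87, NDUFS3 gave -0.64 and 0.56 and NDUFAB1 gave -0.88 and 0.35. Even within NDUFA5 the dimmest probe set stood 0.85 above in animal 5 while the brightest stood 0.94 below, at -0.94. The direction of animal 5 given above for these genes is thus that of the brightest probe set alone. The median r between the first and second probe set of the 7 genes was 0.120 over 10 animals and 0.691 over the 9, as a description of genes that share arrays.

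**Figure D3:**
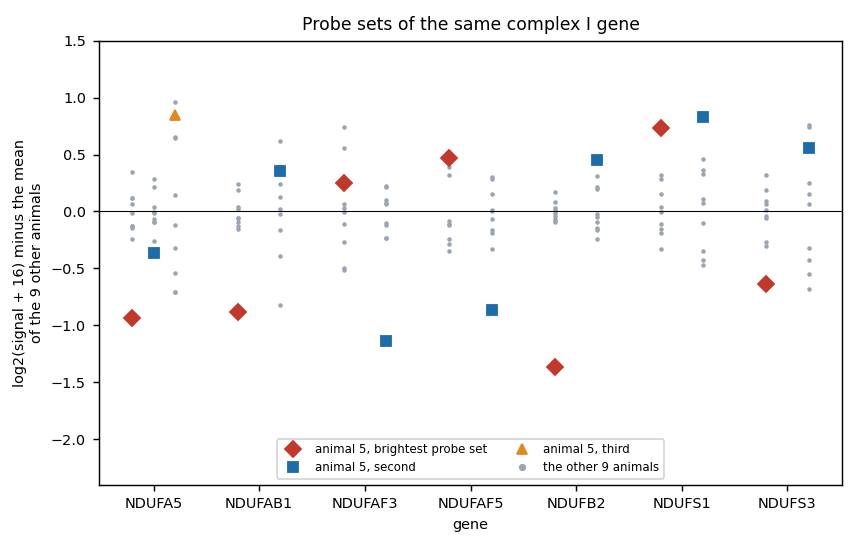
For each of the 7 complex I genes with several probe sets above the filter, large symbols show animal 5 and small points the other 9 animals, as log2(signal + 16) minus the mean of the 9; symbol shape ranks the probe sets by brightness. In NDUFB2 animal 5 lies at -1.37 in 1 probe set and at 0.45 in the other, and in NDUFS1 at 0.73 and 0.83.

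Whether complex I genes varied with the other respiratory complexes was asked with a score over 39 genes of complexes II to V, which holds no NDUF gene. Over 10 animals 16 of 42 members rose with this score and 0 fell in limma at an adjusted p below 0.05, where the background is 6.55% of 6232 genes that rose, 1.94% that fell and 8.49% in either direction. NDUFA11 had the largest slope, at 0.65 on the log2 scale for each SD of the score, with an SE of 0.10 (limma adjusted p = 0.00828). NDUFS5 followed with 0.64 (SE 0.11, limma adjusted p = 0.0104) and NDUFC1 with 0.58 (SE 0.09, limma adjusted p = 0.00828). NDUFAF8 (0.54), NDUFA2 (0.52), NDUFB11 (0.46), NDUFA7 (0.44), NDUFB2 (0.39), NDUFB9 (0.37), NDUFV3 (0.35), NDUFB3 (0.33), NDUFB4 (0.32), NDUFA5 (0.29), NDUFAB1 (0.29), NDUFA10 (0.26) and NDUFA4 (0.24) also rose. By role these were 9 of 20 membrane arm accessory subunits, 4 of 9 matrix arm accessory subunits, 1 of 4 assembly factors, NDUFAB1 and NDUFA4, and 0 of 6 core subunits. Of the core subunits 3 had an unadjusted p below 0.05. The smallest slopes were -0.20 for NDUFB10, -0.17 for NDUFC2 and -0.16 for NDUFS1, none past the test.

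Once the fit also held the poly(A) difference, 0 of 42 members passed, and 0 passed by Spearman correlation. With the deposited scaling 10 passed, and with arrays centred on their median 6. In the 10 fits that each left out 1 animal, NDUFA4 lost its call in 10, NDUFA10 in 8 and NDUFA5 in 5. NDUFA11 and NDUFC1 each lost it in 1.

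The calls also depended on animal 5. The score of that animal was -0.53 and those of the others lay between -0.04 and 0.22. Without animal 5, 0 of 42 members passed in limma, 1 had an unadjusted p below 0.05, and the background is 0.016% of 6236 genes. The score also spread less, with an SD of 0.0794 against 0.199 over 10 animals, so slopes without animal 5 are given here per SD over 10 animals too. In that unit they ran from -0.31 for NDUFS8 to 0.53 for NDUFAF5. Their median was 0.17, against a median of 0.23 over 10 animals. Each fit had 32 of 42 slopes above 0, but not in the same genes. NDUFAF5 was the gene with an unadjusted p below 0.05 (0.0425, limma adjusted p = 0.548). The slope of NDUFA11 was 0.06 without animal 5 (95% interval -0.35 to 0.48) and that of NDUFS5 was -0.02 (95% interval -0.50 to 0.45). Genes with a negative slope over 10 animals that had a positive one without animal 5 included NDUFS1 (0.38), NDUFA12 (0.37) and NDUFAF5, none past the adjusted test.

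**Figure D4:**
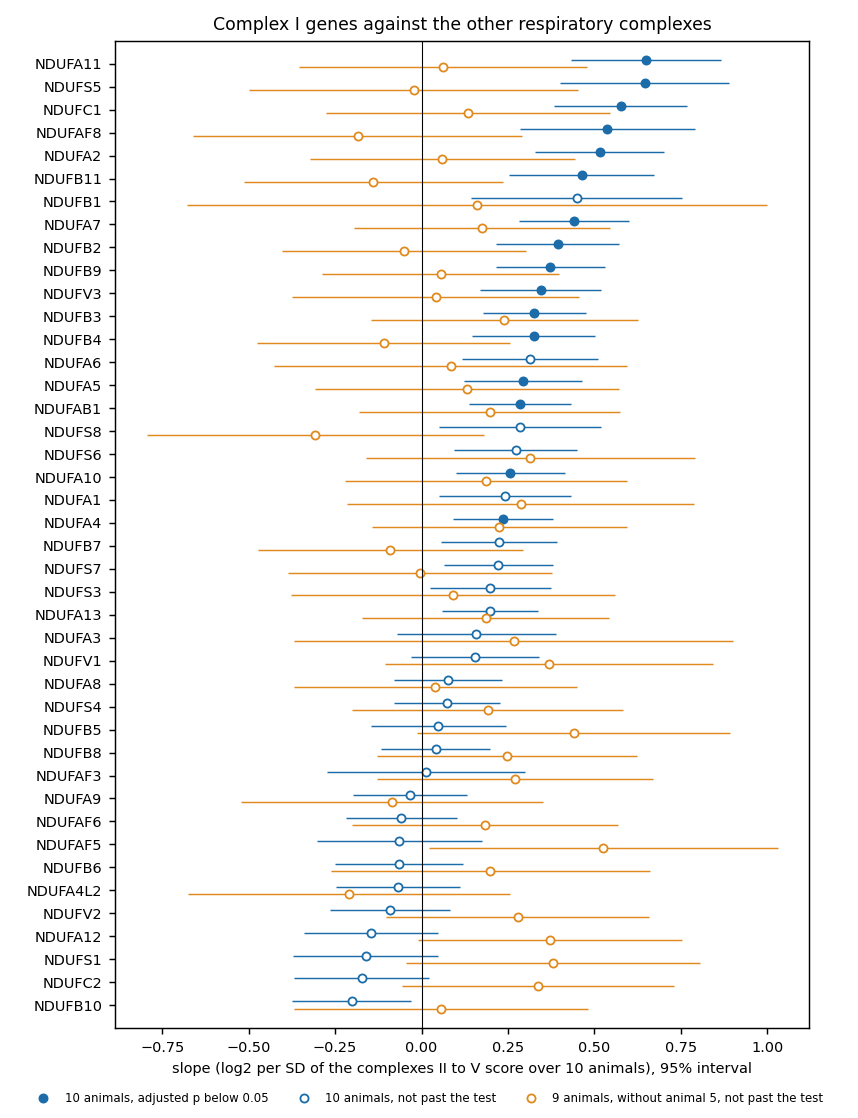
Points are slopes of each complex I gene on the complexes II to V score, in log2 per SD of the score over 10 animals for both fits, with 95% intervals from limma; filled points passed the adjusted test. Over 10 animals (blue) 16 genes pass, with NDUFA11 at 0.65, and over the 9 animals without animal 5 (orange) 0 pass, the slopes lie between -0.31 and 0.53 and the intervals are wider.

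The difference between 3' and 5' signal of the added poly(A) RNAs was fitted in the same way, as a measure of the arrays. Over 10 animals 19 of 42 members fell with it and 1 rose in limma, where the background is 11.1% of 6271 genes that fell, 4.35% that rose and 15.5% in either direction. NDUFS5 (-0.68), NDUFA11 (-0.67), NDUFAF8 (-0.61), NDUFC1 (-0.58), NDUFA2 (-0.53) and NDUFB11 (-0.52) had the steepest slopes per SD, with limma adjusted p from 0.000599 to 0.00113. NDUFA7, NDUFB2, NDUFB9, NDUFV3, NDUFB4, NDUFS8, NDUFA6, NDUFB3, NDUFA5, NDUFAB1, NDUFA10, NDUFB7 and NDUFS7 fell as well, with slopes from -0.43 to -0.24. NDUFB10 was the member that rose, at 0.23 (limma adjusted p = 0.0414). This call was lost in 8 of the 10 fits that each left out 1 animal. The value of animal 5 alone lies far from the rest on this measure, and by Spearman correlation 0 members passed. Without animal 5, 0 members passed, 1 (NDUFA3) had an unadjusted p below 0.05, and 0 of 6275 genes passed in limma, of which 325 had an unadjusted p below 0.05.

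No complex I gene passed the test against the adipocyte score, made from 10 tested fat cell markers. In limma 0 of 42 members passed and 2 had an unadjusted p below 0.05, where the background is 0.112% of 6261 genes that rose. NDUFC1 had the largest slope, 0.37 log2 per SD (95% interval 0.04 to 0.71, limma adjusted p = 0.449), followed by NDUFS5 at 0.33 and NDUFA11 at 0.32. NDUFAB1, at 0.22 (95% interval 0.03 to 0.42, limma adjusted p = 0.438), was the other gene with an unadjusted p below 0.05. Without animal 5, whose adipocyte score of -0.82 was the lowest of the 10, the members' slopes ran from -0.25 for NDUFB1 to 0.19 for NDUFB5 per SD over 10 animals, with a median of 0.00619. In limma 0 of 42 then passed, 0 had an unadjusted p below 0.05, and the background is 0.0479% of 6265 genes.

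Pairs of complex I genes were described by Pearson's r across the animals. Over 10 animals the median r over the 861 pairs of members was 0.357, and over all pairs of tested genes it was 0.00413. Without animal 5 these were 0.179 and 0.00153. Pairs share the 10 arrays and the members were chosen as 1 family, so these values are a description. Complexes II and III had a median r of 0.186 over 10 animals and 0.331 without animal 5, complex IV 0.0887 and 0.165, and complex V 0.243 and 0.125. The order turned with the deposited scaling, where the median r over 10 animals was 0.447 for complex I, 0.546 for complexes II and III, 0.664 for complex IV and 0.664 for complex V. With r above 0.8 there were 201 member pairs over 10 animals and 20 without animal 5. With r below -0.8 there were 19 and 0. Of about 19659600 pairs of all tested genes, 259361 were above 0.8 and 189169 below -0.8 over 10 animals. Without animal 5 these were 149473 and 134901.

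The genes that were highest in animal 5 had positive r with each other in the remaining 9 animals as well. NDUFS1, NDUFV2, NDUFA12, NDUFC2, NDUFB10, NDUFB6 and NDUFAF6 form 21 pairs, and over the 9 animals r was above 0 in 21 of them, with a median of 0.668. The 25 genes lowest in animal 5 form 300 pairs with a median r of 0.140, of which 194 were above 0. Pairs of 1 gene from each set had a median r of 0.193. These sets were formed after the values had been seen, and their difference was not tested. They rest on quantile normalization, and r within them was not computed under another scaling. With the deposited scaling NDUFV2, NDUFA12, NDUFB10 and NDUFB6 were not highest in animal 5, and NDUFAF5 was. Animals 6 and 7 were the 2 highest of the 9 in NDUFS1 (13.56 and 13.53), NDUFV2 (14.47 and 14.59) and NDUFA12 (14.36 and 14.23), and animal 9 was the lowest in NDUFS1 (12.92) and NDUFV2 (14.07). Against the mean of the other members over the 9 animals, NDUFS1 had r = 0.923 and NDUFV2 r = 0.862, the largest of the family, and NDUFB4 had r = -0.520, the smallest.

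**Figure D5:**
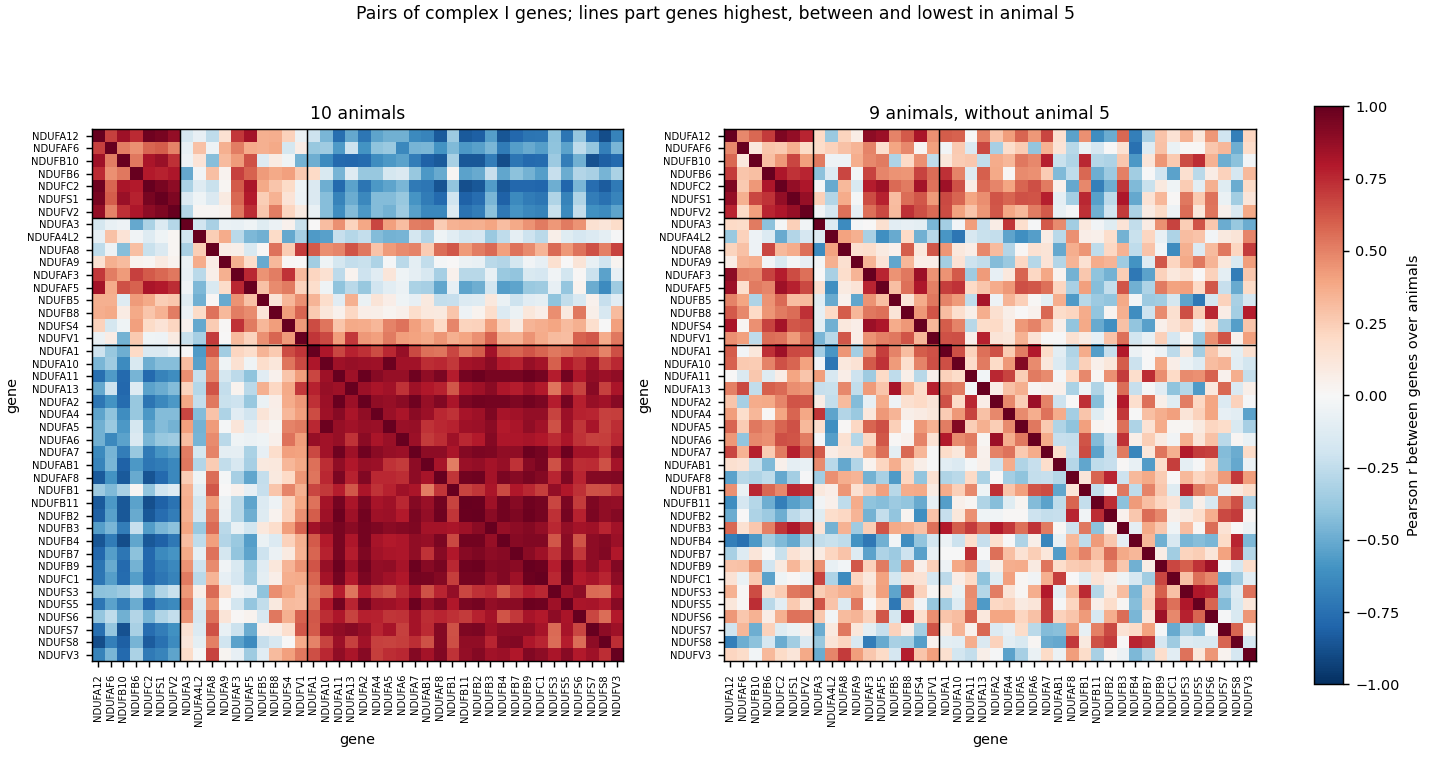
Colour gives Pearson r between each pair of complex I genes over 10 animals (left) and over the 9 animals without animal 5 (right). Black lines part the genes that were highest (7), between (10) and lowest (25) in animal 5 after quantile normalization. The median over all 861 pairs is 0.357 on the left and 0.179 on the right, where the block of 7 genes at the top left stays red with a median of 0.668.

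Calls among other genes of the pathway differed between lists. In limma with the complexes II to V score, 1 of 7 complex I assembly genes outside the NDUF symbols rose, COA1 (0.44, adjusted p = 0.0173), a small factor of the inner membrane, and 0 fell. TMEM186 had -0.24 (adjusted p = 0.235). Of 6 regulators of mitochondrial genes 0 passed. YY1 had -0.29 (limma adjusted p = 0.0702) and PPRC1 -0.19. PPARGC1A, the coactivator of mitochondrial biogenesis, had a slope of -0.05 over 10 animals and, in the same unit, 1.15 without animal 5 (limma adjusted p = 0.477, unadjusted p = 0.00517). Of 10 TCA cycle genes 2 rose, SUCLG1 (0.27, limma adjusted p = 0.0319) and IDH3G (0.26, adjusted p = 0.0466), and SUCLA2 had the slope farthest below 0, at -0.28 (adjusted p = 0.114). Of 67 genes of the mitochondrial ribosome 18 rose and 0 fell, where the background is 6.55% that rose and 1.94% that fell. Without animal 5 none of these genes passed in limma. Within the score's own list, fitted against the score without each gene, 16 of 39 genes rose over 10 animals, 3 of 13 in complexes II and III, 6 of 11 in complex IV and 7 of 15 in complex V, and COX6A1 (0.63) and COX6A2 (0.61) had the largest slopes.

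With the poly(A) difference, COA1 fell (-0.42, limma adjusted p = 0.0152), and 0 of 6 regulators passed. Of TCA cycle genes SUCLG1 (-0.27) and IDH3G (-0.24) fell and SUCLA2 rose (0.36), with limma adjusted p = 0.0203, 0.0423 and 0.0138. Of mitochondrial ribosome genes 27 of 67 fell and 1 rose, where the background is 11.1% that fell and 4.35% that rose. With the adipocyte score 0 genes of these lists passed.

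The genes outside the family whose pattern was most like the mean of the members were named by r over the 10 animals. MRPL55, a mitochondrial ribosome gene, had the highest r at 0.973 (0.903 over the 9 animals). ACBD5 (0.971 and 0.775), DDX1 (0.967 and 0.895), LRRC51 (0.963 and 0.877), CCNH (0.963 and 0.764), LTV1 (0.956 and 0.832), FAM162A (0.956 and 0.678), MAIP1 (0.955 and 0.630), MICOS13 (0.955 and 0.612) and SNRNP25 (0.953 and 0.593) followed. Animal 5 stood below the mean of the others in each of these 10 genes, from -0.84 for DDX1 to -2.35 for MAIP1. Ranked over the 9 animals alone, RRN3 (0.979), IFNAR2 (0.973) and FAM3C (0.932) came first, and RRN3 and FAM3C had negative r over all 10 animals, at -0.606 and -0.571.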

How the data were processed

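The authors deposited 1 linear signal intensity per probe set and array, already scaled alike: trimmed by 2% at both ends, array means fell within 500.177 to 500.203. The software, not given in the sources used here, is unknown. Trizol extraction, oligotex selection of poly(A) RNA and biotin labelling are named per the labels' protocols. Array medians on the log2(signal + 16) scale spanned 0.24, and values were quantile normalized without the 112 control probe sets. Genes entered the tests when their mean exceeded the median over the remaining 24016 probe sets. Gene symbols of all 57 NDUF probe sets matched by gene ID to the ARS-UCD2.0 table, which changed 0 of them.

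A score averages, over a list's tested genes, how far each gene lies from its own mean in an animal. Slopes on a score in SD units came from limma (3.58.1, under R 4.3.3) using Benjamini-Hochberg adjustment at 0.05 over all tested genes, and the fit was tested on simulated data. For a gene of a score's own list the score was rebuilt without that gene, and such genes stay out of the counts. Genes were named by role, by passing a test, by the 5 largest and 5 smallest SDs and, outside the family, by the 10 highest r with the member mean. The members and lists were chosen with earlier results of these data known. A planned search for promoter motifs was not run, because no promoter sequences were used here. SDs, pair correlations and ranges without animal 5 keep the normalization over 10 arrays, and fits without it were normalized anew. Alternatives covered scaling, filter, pseudocount, probe set choice, the poly(A) difference as a covariate, a Spearman test and each animal left out. Counts of members at the extreme in animal 5 and the ranking of genes over 9 animals were added after seeing the data. The number of arrays limits the precision.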

Additional observations from a re-analysis of the deposited data

Results flagged for a closer look

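Animal 5 lay apart from the other 9 in 20 of 42 complex I genes by Dixon's measure, the gap to the nearest animal as a share of the whole range. It was the lowest animal in 19 of them, against a background of 8.63% of all tested genes, and the highest in 1, against a background of 3.28%. Among 39 genes of complexes II to V it was set apart as the lowest in 20 and as the highest in 0. Chance gives about 1 such animal in 20 groups, and the genes share the same 10 arrays.

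Among the membrane arm genes the share was 0.83 for NDUFB2, 0.824 for NDUFB9, 0.812 for NDUFB11, 0.794 for NDUFA11, 0.762 for NDUFC1 and 0.751 for NDUFS5. It was 0.696 for NDUFB4, 0.642 for NDUFB3, 0.554 for NDUFB7, 0.508 for NDUFA10 and 0.468 for NDUFA13. NDUFC2 (0.528) was the gene in which animal 5 stood apart as the highest. In the matrix arm the share was 0.788 for NDUFA2, 0.76 for NDUFA7, 0.658 for NDUFV3 and 0.541 for NDUFA5, and among the core subunits NDUFS7 had 0.595. NDUFAF8 had 0.719, NDUFAB1 had 0.651 and NDUFA4 had 0.47.

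Animal 5 was also apart in the mean deviation of the 42 members (share 0.687), in the complexes II to V score (0.644) and, as the highest, in the poly(A) control difference (0.831).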

How the results depend on the processing

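No paired analysis was possible because the series has 1 group. Alternatives changed 1 choice at a time. The 16 members called with the complexes II to V score became 10 with the deposited scaling, 6 with arrays centred on their median, 10 with no filter, 9 when a gene's probe sets were averaged, and 0 with the poly(A) difference as a covariate or by Spearman correlation. The 529 genes called in all became 186, 111, 213, 236, 0 and 7 in the same order. The 20 members called with the poly(A) difference became 11 with centred arrays and 0 by Spearman correlation, and the 969 genes became 3 by Spearman correlation. The 7 genes called with the adipocyte score became 11 with the deposited scaling, 4 with no filter, 0 with the filter at the 75th percentile and 3 with the covariate. The 7 members highest in animal 5, a count added after seeing the data, became 4 with the deposited scaling. With the covariate the slopes of NDUFAF8 (-0.0309) and NDUFB11 (-0.00443) changed sign. The cause of these changes was not tested.

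Leaving out each animal in turn gave 0 (without animal 5) to 17 members with the complexes II to V score and 1 (without animal 5) to 715 genes, with 351 without animal 4. It gave 0 (without animal 5) to 22 members and 0 to 1047 genes with the poly(A) difference, and 0 (without animal 9) to 8 genes with the adipocyte score, with 1 without animal 4. The median SD ran from 0.17 (without animal 5) to 0.33 and the median r from 0.171 to 0.407. Slopes that changed sign did so without animal 5. Each slope is per SD of the animals in its fit, which without animal 5 fell from 0.199 to 0.0794 for the complexes II to V score and from 0.4998 to 0.0945 for the poly(A) difference, so the ends of a range can differ in unit and show the sign. On the complexes II to V score the ranges were -0.0738 to 0.60 for NDUFAF8, -0.0555 to 0.53 for NDUFB11, -0.0198 to 0.44 for NDUFB2, -0.0435 to 0.36 for NDUFB4 and -0.00892 to 0.72 for NDUFS5. On the poly(A) difference they were -0.71 to 0.0909 for NDUFA11, -0.57 to 0.0543 for NDUFA2, -0.36 to 0.0445 for NDUFA6, -0.46 to 0.0837 for NDUFA7, -0.29 to 0.0647 for NDUFAB1, -0.33 to 0.0643 for NDUFB3, -0.27 to 0.0327 for NDUFB7, -0.41 to 0.00930 for NDUFB9, -0.63 to 0.0446 for NDUFC1 and -0.72 to 0.0773 for NDUFS5. The count of 0 members called with the adipocyte score held in every setting run. The number of arrays limits these results, and so does the fact that no trait values were used here.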
